A study of Mus musculus with 2 samples.

Results

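The receptors described here are 9 cytokine receptor genes whose proteins signal through STAT3, STAT5 or related STATs, chosen by name from the 28009 genes listed in the matrices of IL-10-producing CD4+ T cells. They are *Il2rb*, *Il2rg*, *Il4ra*, *Il6ra*, *Il6st*, *Il10ra*, *Il10rb*, *Il21r* and *Il27ra*, and all 9 had UMIs in both tissues. The cells were IL-10eGFP+ CD4+ T cells, Foxp3+ cells included, sorted from spleen or small intestine of IL-10eGFP Foxp3mRFP double reporter mice. The mice were 8 to 16 weeks old and all of them had been given anti-CD3, which stimulates the T cell receptor complex, as 2 injections of 15 µg on days 0 and 2, and cells were taken 4 h after the second. There was thus no untreated group. RNA of single cells was measured with the 10x Genomics platform, with 1 library per tissue, and the number of mice behind a library is not given in the sources used here. The comparison of tissues therefore has no replicates, and those by *Foxp3* UMI and by *Il10* UMIs divide the cells of a single library. No test was made, and all intervals in brackets are 95% intervals that cover counting error only.

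Cytokine receptors of this kind are assembled from shared and private chains. The common gamma chain (*Il2rg*) pairs with the chains for IL-2 and IL-15 (*Il2rb*), IL-4 (*Il4ra*) and IL-21 (*Il21r*), and gp130 (*Il6st*) pairs with the chains for IL-6 (*Il6ra*) and IL-27 (*Il27ra*), while the IL-10 receptor joins *Il10ra* to *Il10rb*, a chain that other members of the IL-10 family also use. Janus kinases bound to the chains phosphorylate STATs. IL-6, IL-10, IL-21 and IL-27 act largely through STAT3, IL-2 and IL-15 through STAT5 and IL-4 through STAT6. In CD4+ T cells IL-27 and IL-21 are known as inducers of IL-10, IL-6 takes part in Th17 differentiation, and IL-2 maintains Foxp3+ regulatory T cells.

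The spleen library held 1738 barcodes and 11103530 UMIs (unique molecular identifiers, each counting a captured RNA molecule once) and the library of the small intestine 1474 barcodes and 5693395 UMIs. No barcode was shared between them. After filters on quality and removal of G2/M cells, 1468 splenic cells with a median of 5398 UMIs and 1277 intestinal cells with a median of 3696 UMIs were kept. Levels are UMIs summed over a group of cells and scaled to 1000000 UMIs of that group (CPM), so that each receptor can be compared between groups but not with another receptor. A count of 3 UMIs stands for 0.328 CPM in splenic cells and 0.596 CPM in intestinal cells. Shares of cells depend on depth and are given after thinning each cell at random to 2094 UMIs, which left 1438 splenic and 1149 intestinal cells, with the unthinned share beside the first of them. The T cell markers *Cd3e*, *Cd3d*, *Cd3g*, *Cd4* and *Lck* were all present, and 99.9% of the splenic and 99.7% of the intestinal cells had a UMI of them. The CD8 genes *Cd8a* and *Cd8b1* summed to 13.8 CPM in splenic cells and 353 CPM in intestinal cells, where 121 cells had UMIs of both. Of the B cell and plasma cell genes (*Cd79a*, *Cd79b*, *Ms4a1*, *Jchain*, *Sdc1*), which T cells should lack, the share of cells with a UMI was between 0% and 1.57%, and this range serves as the background for shares.

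On GRCm38, *Il2rb* (ENSMUSG00000068227) lies at chr15:78479256-78495271, *Il2rg* (ENSMUSG00000031304) at chrX:101264378-101268255, *Il4ra* (ENSMUSG00000030748) at chr7:125552120-125579474 and *Il6ra* (ENSMUSG00000027947) at chr3:89864059-89913196. *Il6st* (ENSMUSG00000021756) lies at chr13:112464070-112510086, *Il10ra* (ENSMUSG00000032089) at chr9:45253837-45269149, *Il10rb* (ENSMUSG00000022969) at chr16:91406164-91425834 and *Il27ra* (ENSMUSG00000005465) at chr8:84030294-84042589. *Il21r* (ENSMUSG00000030745), at chr7:125603429-125633570, lies downstream of *Il4ra* on the same strand. The antisense gene *Gm42809* within *Il6ra* had 22 UMIs in splenic cells and 0 in intestinal cells, and *Palm3*, which overlaps *Il27ra* on the opposite strand, had 2 in each. *Gm20489*, which overlaps *Il2rg*, and *Gm21970*, which overlaps *Il10rb*, were at 0. Whether counting used the strand is not given in the sources used here, so reads of *Il6ra* and *Gm42809* cannot be told apart with certainty.

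The RefSeq table used here held promoters of 5 of the 9 genes (GRCm38.p6). The 250 bases before the start of 3 of them are shown, because these genes differed most in level between the tissues. Capitals mark matches to a nuclear receptor motif of the NR4A and related families (AAAGGTCA or its reverse complement TGACCTTT) and to a GC box (GGGCGG or CCGCCC). *Il6ra* is at chr3:89913197-89913446 on the minus strand, *Il6st* at chr13:112463820-112464069 on the plus strand and *Il21r* at chr7:125603179-125603428 on the plus strand, each written 5′ to 3′ toward the start.
Il6ra promoter: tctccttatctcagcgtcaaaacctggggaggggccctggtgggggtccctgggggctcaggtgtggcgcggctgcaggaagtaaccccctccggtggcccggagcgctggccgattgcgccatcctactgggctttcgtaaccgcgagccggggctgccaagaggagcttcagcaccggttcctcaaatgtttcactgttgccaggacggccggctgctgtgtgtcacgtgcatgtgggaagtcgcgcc
Il6st promoter: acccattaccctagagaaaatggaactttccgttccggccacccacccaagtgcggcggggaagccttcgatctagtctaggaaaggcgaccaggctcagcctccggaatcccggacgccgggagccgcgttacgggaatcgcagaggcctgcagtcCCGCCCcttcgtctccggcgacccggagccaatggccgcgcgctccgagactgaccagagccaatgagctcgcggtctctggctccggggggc
Il21r promoter: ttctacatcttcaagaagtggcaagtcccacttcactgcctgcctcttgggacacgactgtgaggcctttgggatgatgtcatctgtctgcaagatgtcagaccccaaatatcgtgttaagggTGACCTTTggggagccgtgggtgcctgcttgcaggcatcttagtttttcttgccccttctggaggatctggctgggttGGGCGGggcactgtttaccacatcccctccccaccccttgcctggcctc
None of the 5 promoters held the STAT motifs TTCNNNGAA (in 7.02% of all 32851 promoters of this length in the table) or its form with a spacer longer by a base (5.85%), or the AP-1 motif TGANTCA (6.75%), all of which read the same on either strand. The motif AAAGGTCA was in 1 of the 5, *Il21r*, from 127 to 120 bases before its start, and in 1.34% of all promoters. It was searched because *Nr4a2* had a pattern close to that of *Il21r* over the graph clusters and was chosen after the sequence had been seen. A GC box was in *Il4ra*, *Il21r* and *Il6st* and in 32.7% of all promoters. A match is a description of these letters and not of a site, and the absence of a match says only that the letters are not in this window.

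Comparing spleen with small intestine asked whether IL-10-producing cells of the 2 tissues carried the same receptors. *Il6ra*, the private chain of the IL-6 receptor, was nearly confined to the spleen, and *Il6st* was also higher there, while *Il21r* and *Il27ra* were higher in the small intestine. *Il2rb*, *Il2rg*, *Il4ra*, *Il10ra* and *Il10rb* were within 1.12-fold of each other. A gene was counted as different where its levels were at least 1.5-fold apart and it had at least 50 UMIs over both groups. This held for 4 of the 9 receptors, 2 in each direction, beside 45.5% of the 9032 genes with enough UMIs (24.1% higher and 21.4% lower in the spleen), so that receptors differed about as often as genes did in general. The median log2 ratio was -0.04 over the receptors and 0.02 over all genes. As the 2 tissues are 2 libraries, tissue and library cannot be told apart.

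Among the gp130 receptors, *Il6ra* stood at 44.0 CPM in splenic cells (39.8 to 48.6, 403 UMIs) and at 1.99 CPM in intestinal cells (0.953 to 3.65, 10 UMIs), a 22.2-fold difference (11.9 to 46.6). At equal depth 9.32% of splenic cells (7.87 to 10.9) and 0.522% of intestinal cells (0.192 to 1.13) had a UMI, and 21.5% and 0.470% did without thinning. The intestinal share lies within the background range and is not read as expression over the tissue as a whole. All 10 intestinal UMIs were in 6 cells of a single graph cluster.

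*Il6st*, which encodes gp130, the chain that carries the signal, was at 69.7 CPM in splenic cells (64.4 to 75.3) and 18.5 CPM in intestinal cells (14.9 to 22.6), 3.77-fold apart (3.03 to 4.74). The equal-depth shares were 12.2% (10.5 to 14.0) and 3.92% (2.87 to 5.21), and 30.2% and 6.73% without thinning. *Il27ra*, the private chain for IL-27, had the opposite order. Its level was 46.3 CPM in splenic cells (42.0 to 51.0) and 72.5 CPM in intestinal cells (65.3 to 80.4), which was 1.57-fold higher (1.36 to 1.80), and its shares were 10.5% (8.96 to 12.2) and 13.9% (12.0 to 16.1), or 23.9% and 24.4% without thinning. With all cells at equal depth the intestinal excess was 1.39-fold and no longer counted as different.

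Among the receptors of the common gamma chain, *Il21r* was the one that differed. It stood at 217 CPM in splenic cells (207 to 227) and 491 CPM in intestinal cells (472 to 511), 2.26-fold higher (2.13 to 2.40), and was seen in 36.3% of splenic (33.8 to 38.8) and 56.2% of intestinal cells (53.3 to 59.1), or 64.4% and 72.4% without thinning. *Il2rg* itself was at 221 CPM (212 to 231) and 227 CPM (214 to 241), with shares of 38.3% and 38.1%. *Il2rb* was at 176 CPM in splenic cells (168 to 185) and 162 CPM in intestinal cells (151 to 173), a ratio of 1.09 (1.0 to 1.19), and *Il4ra* at 54.5 CPM (49.8 to 59.5) and 61.2 CPM (54.6 to 68.4). Both chains of the IL-10 receptor were close in level between the tissues. *Il10ra* was at 17.8 CPM in splenic cells (15.2 to 20.8) and 18.3 CPM in intestinal cells (14.7 to 22.4), and *Il10rb* at 41.5 CPM (37.5 to 45.9) and 41.1 CPM (35.7 to 47.1).

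**Figure D1:**
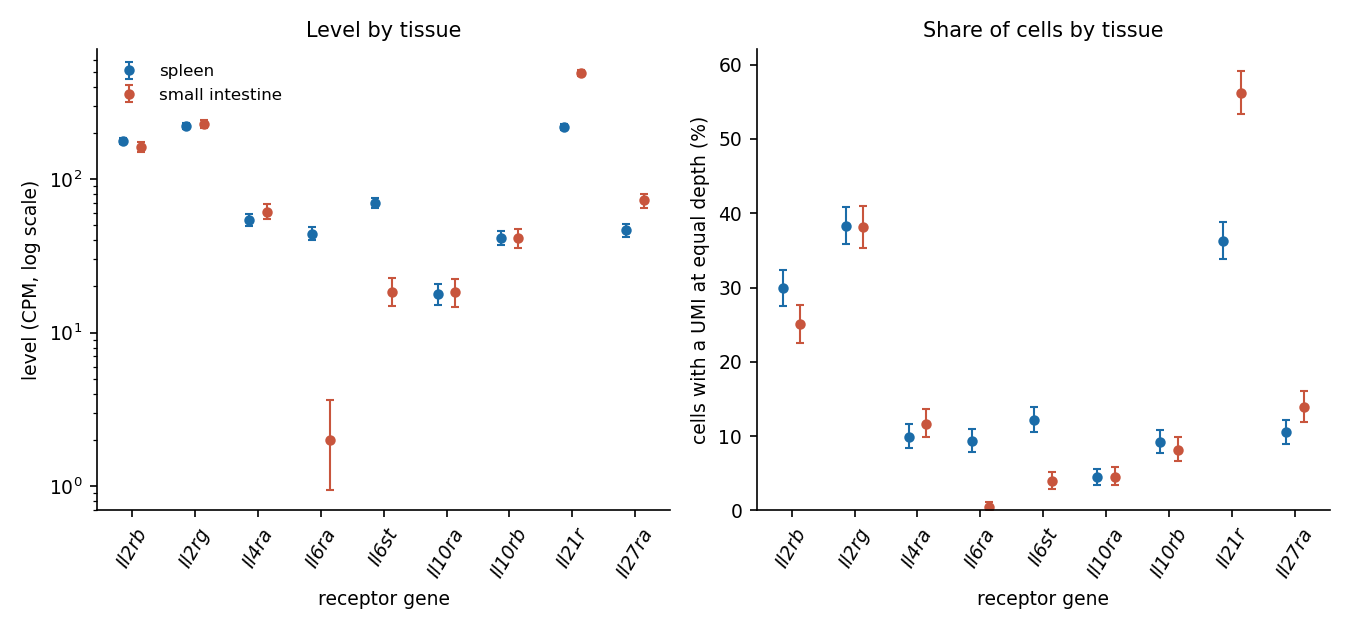
Level (CPM, log scale, left) and share of cells with a UMI after thinning to 2094 UMIs per cell (right) of the 9 receptor genes in the spleen and small intestine libraries, with bars for 95% counting intervals (exact Poisson for levels, exact binomial for shares). *Il6ra* and *Il6st* lie higher in the spleen and *Il21r* and *Il27ra* higher in the small intestine, and the points of *Il2rg*, *Il10ra* and *Il10rb* nearly coincide.

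Genes of naive and central memory T cells differed along with these receptors. *Klf2* was at 270.3 CPM in splenic cells and 25.8 CPM in intestinal cells, *Tcf7* at 132 and 9.34 CPM, *Ccr7* at 86.5 and 10.9 CPM, *Lef1* at 75.3 and 17.9 CPM and *S1pr1* at 55.2 and 4.17 CPM. The summed level of the effector genes *Ccl5*, *Nkg7*, *Gzma*, *Gzmb* and *Ccl4* was 5961 and 91762 CPM. The part of these genes in the result was not tested. With all cells at equal depth the *Il6ra* ratio was 13.8-fold, and *Il6st* and *Il21r* were still counted as different.

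The 47 other genes of the pathway held 35 with enough UMIs, of which 10 were higher and 14 lower in the spleen, beside 45.5% of all genes in either direction. Of 7 STAT genes, 2 were higher and 4 lower in the spleen. *Stat3*, the STAT common to the gp130 receptors and to *Il21r*, was at 169 CPM in splenic cells and 475 CPM in intestinal cells, 2.80-fold higher there (2.63 to 2.99). *Il22* was at 0.656 CPM in splenic cells and 31.2 CPM in intestinal cells, while *Il4* (9.29 against 0.397 CPM, from 85 and 2 UMIs, a ratio of 23.4 with an interval of 6.27 to 196), *Ebi3* (6.99 against 0.994 CPM), which encodes a subunit of IL-27, and *Il21* (64.7 against 14.7 CPM) were higher in the spleen. *Il2ra*, which with *Il2rb* and *Il2rg* forms the high-affinity IL-2 receptor, was at 156 CPM in splenic cells and 23.6 CPM in intestinal cells, 6.60-fold apart (5.47 to 8.02). *Il12rb2*, a chain of the IL-12 receptor, was 4.73-fold higher in the small intestine (4.16 to 5.38) and *Socs1*, a feedback inhibitor of Janus kinases, 3.27-fold higher in the spleen (2.77 to 3.88).

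Graph clusters were made within each tissue from variable genes other than the receptors and the pathway list, and they show how the receptors vary among the cells of a library. Numbers and leading genes name them. In the spleen they were led by *Tnfsf8* and *Tbc1d4* (cluster 1, 314 cells), *Pik3ip1* and *Ccr7* (cluster 2, 242), *Tnfrsf9*, *Ccr8* and *Foxp3* (cluster 3, 234), *Hist1h2ap* and *Rrm2* (cluster 4, 215), *Lgals3* and *Cxcr6* (cluster 5, 172), *Ccl5* and *Ccl3* (cluster 6, 161) and *Cnn3* and *Bach2* (cluster 7, 130). In the small intestine the leading genes were *Ccl4* and *Ccl3* (cluster 1, 321 cells), *Dapk2* and *Cd7* (cluster 2, 251), *Sv2c* and *Ramp3* (cluster 3, 202), *Ahnak* and *Lag3* (cluster 4, 189), *Il17a* and *Tmem176b* (cluster 5, 176) and *Cd8b1* and *Cd8a* (cluster 6, 138).

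*Il6ra* varied most within the spleen. It was highest in cluster 2 at 119 CPM (99.3 to 142) and then in cluster 1 at 67.2 CPM (54.4 to 82.0), was between 24.3 and 39.1 CPM in clusters 7, 4, 5 and 3, and was lowest in cluster 6 at 10.9 CPM (5.23 to 20.1). The first 2 places are apart from each other and from the third by their intervals, and the middle clusters are not apart from their neighbours. *Ccr7*, *Lef1* and *S1pr1* were among the leading genes of cluster 2, and their part in the result was not tested. In the small intestine *Il6ra* was at 14.3 CPM in cluster 5 (6.88 to 26.4) and at 0 in the other 5. Other genes were also highest in this cluster among the intestinal clusters. They were *Il17a*, a cytokine of Th17 cells (337 CPM against at most 5.18 CPM elsewhere), the naive cell genes *Klf2* (91.8 against at most 21.6 CPM), *Lef1* (57.4 against at most 16.1 CPM) and *Tcf7* (51.7 against at most 8.66 CPM), the B cell genes *Cd79a* (27.3 against at most 6.19 CPM) and *Cd79b* (21.5 against at most 13.6 CPM), the plasma cell gene *Sdc1* (10.0 against at most 2.88 CPM) and *Kit* (20.1 against at most 1.24 CPM), with *Ncr1* and *Klrb1c* at 0. The *Sdc1* value rests on 7 UMIs, and *Jchain*, the other plasma cell gene listed, had 0 UMIs in all intestinal cells. *S1pr1* was also highest in cluster 5 (21.5 CPM), and *Ccr7* was not (14.3 against 25.1 CPM in cluster 1). Their part in the result was not tested.

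*Il6st* was at 54.5 CPM or more in 6 of the 7 splenic clusters, with the highest value in cluster 3 at 104 CPM (88.3 to 121), and stood at 21.8 CPM in cluster 6 (13.3 to 33.7). Among the intestinal clusters it was between 7.09 CPM in cluster 6 (2.30 to 16.6) and 31.1 CPM in cluster 3 (19.9 to 46.2). Splenic cluster 6, with 20 UMIs of *Il6st*, therefore lay within the range of the intestinal clusters for this gene. Its *Ccl5* was at 25258 CPM, 84.2-fold above the other splenic clusters (80.8 to 87.8). Set against the intestinal clusters other than cluster 5, all high in *Ccl5* (56111 CPM together), its *Il6st* ratio was 1.20 (0.694 to 1.97). *Il6ra* did not share this: cluster 6 had 10.9 CPM (10 UMIs) and those intestinal clusters 0 UMIs, at least 10.6-fold apart by the interval. At equal depth, however, only 2 of 155 cells of splenic cluster 6 had an *Il6ra* UMI (1.29%, 0.157 to 4.58). This share lies within the background range of both tissues but above its highest splenic value (*Cd79b*, 1.25%), and its interval reaches beyond the range. Without thinning, 10 of 161 cells of the cluster had an *Il6ra* UMI (6.21%). The background genes *Cd79a*, *Cd79b*, *Ms4a1* and *Sdc1* were at 0 in this cluster and *Jchain* at 1.09 CPM. With so few UMIs, expression of *Il6ra* in that cluster is not settled.

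*Il21r* was between 175 and 268 CPM in every splenic cluster and between 476 and 598 CPM in 5 of the 6 intestinal clusters. Intestinal cluster 5 was the exception at 178 CPM (148 to 212), 3.04-fold below the other intestinal clusters together (542 CPM, 519.9 to 564). It was also lowest in *Ccl5* among the intestinal clusters (3276 CPM). The *Ccl5*-rich cells of the spleen did not reach the intestinal level, as cluster 6 had 266 CPM of *Il21r* (234 to 302), 2.04-fold below the *Ccl5*-high intestinal clusters (1.78 to 2.33). Against the splenic clusters other than 6, the level in cluster 5 was 1.19-fold lower for *Il21r* (0.990 to 1.44, which holds no difference), 3.33-fold lower for *Il6ra* (14.3 against 47.7 CPM, 1.79 to 6.99) and 3.74-fold lower for *Il6st* (20.1 against 75.1 CPM).

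Of the other receptors, *Il4ra* varied 4.06-fold (2.62 to 6.50) and *Il2rb* 3.13-fold (2.47 to 4.02) from the highest to the lowest splenic cluster. *Il2rb* was highest in splenic cluster 3 at 279 CPM (253 to 306), the cluster with most *Foxp3* UMIs, and lowest in splenic cluster 7 at 89.0 CPM (70.7 to 110.4) and intestinal cluster 2 at 92.8 CPM (73.0 to 116). *Il4ra* was highest in splenic clusters 7 at 99.8 CPM (80.5 to 122) and 3 at 88.9 CPM (74.7 to 105), which are not apart, and lowest in splenic clusters 5 at 24.6 CPM (16.2 to 35.7) and 6 at 28.4 CPM (18.5 to 41.5). *Il27ra* was between 24.9 and 67.2 CPM in splenic cells and between 51.1 and 96.4 CPM in intestinal cells. *Il2rg* was between 165 and 296 CPM in splenic cells and 145 and 265 CPM in intestinal cells, *Il10rb* between 27.7 and 60.4 CPM and *Il10ra* between 8.68 and 25.6 CPM over all 13 clusters. For *Il10ra*, and also for *Il2rg*, *Il4ra*, *Il10rb* and *Il27ra*, no 2 neighbours in the order of either tissue were apart by their intervals.

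**Figure D2:**
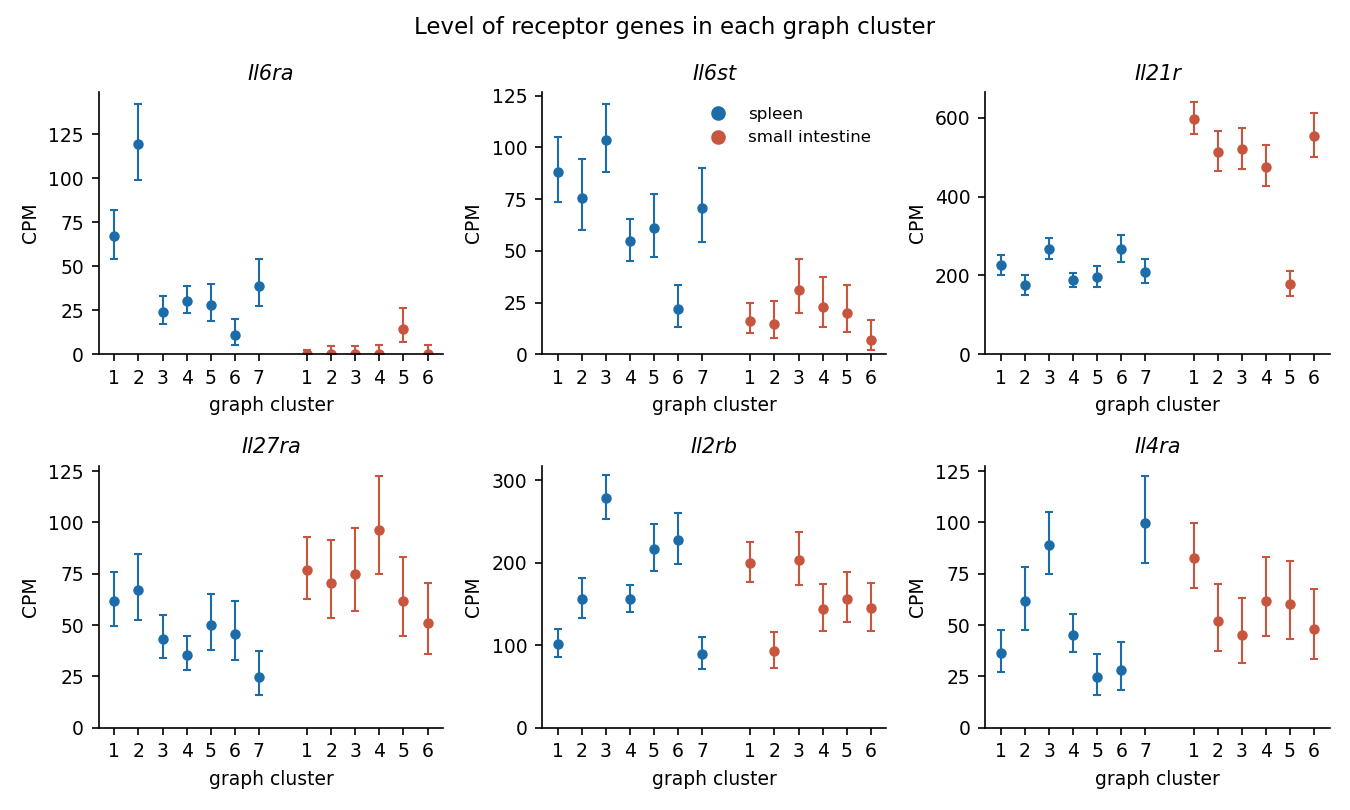
Level (CPM, linear scale from 0) of 6 receptor genes in each graph cluster of the spleen (7 clusters) and small intestine (6 clusters), with exact Poisson 95% intervals. *Il6ra* peaks at 119 CPM in splenic cluster 2 and is at 0 in 5 intestinal clusters, *Il6st* is low in splenic cluster 6, and *Il21r* is at 178 CPM in intestinal cluster 5 beside 476 to 598 CPM in the other intestinal clusters.

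Over the 13 clusters, the genes whose log2 level was most like that of a receptor were named by a fixed rule, as a description over points that share 2 libraries and their depths. *Il6ra* was closest to *Slamf6* (Pearson r = 0.97), *Pdk1* and *S1pr1* (both 0.95), of which *S1pr1* guides T cells out of lymphoid organs. *Il6ra* itself was at 0 in all intestinal clusters except cluster 5, so its values at those points are equal. *Il21r* was closest to *Cables1* and *Nr4a2* (both 0.96), the second a transcription factor induced through the T cell receptor, and to *Amica1* (0.94). *Il6st* was closest to *Zc3h12d* and *Iigp1* (both 0.93) and *Izumo1r* (0.92), which encodes a folate receptor of regulatory T cells. *Il27ra* was closest to *Ankhd1* (0.95), *Bod1l* and *Chd2* (both 0.94), *Il2rg* to *Msi2* (0.89), *Rab11b* (0.88) and *Sdcbp* (0.83), *Il10ra* to *Epsti1* (0.84), *Sp100* (0.82) and *Cmc1* (0.79), *Il10rb* to *Trim26* (0.82), *Faap20* (0.79) and *Rac2* (0.77), *Il2rb* to *Tax1bp1* (0.79), *Tnfrsf18* (0.77) and *Sv2c* (0.77), and *Il4ra* to *Nrip1* (0.72), *Rbm26* (0.71) and *Ube3a* (0.70).

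Grouping the cells by *Foxp3*, the transcription factor of regulatory T cells, asked whether the receptors differ between Foxp3+ cells and the other IL-10-producing cells. In the spleen, cells with a *Foxp3* UMI had more *Il4ra*, *Il2rb*, *Il10ra* and *Il6st* and less *Il6ra* than cells without. Of the 9 receptors 2 passed 1.5-fold, *Il4ra* upward and *Il6ra* downward, beside 13.7% of 8117 genes (6.36% higher and 7.39% lower). There were 280 splenic cells with a *Foxp3* UMI and 1188 without, and their median depths were 7665.5 and 5047.5 UMIs. Cells without a *Foxp3* UMI include Foxp3+ cells in which none was captured.

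*Il4ra* was at 74.5 CPM in the cells with a *Foxp3* UMI (63.8 to 86.4) and 47.7 CPM in the others (42.7 to 53.2), 1.56-fold higher (1.29 to 1.88). *Il2rb* was at 234 CPM (215 to 255) and 157 CPM (148 to 167), 1.49-fold higher (1.34 to 1.66), with equal-depth shares of 43.0% (37.1 to 49.0) and 26.8% (24.3 to 29.4). *Il6ra* was at 30.1 CPM (23.5 to 38.1) and 48.8 CPM (43.7 to 54.3), 1.62-fold lower (1.25 to 2.13). Smaller differences whose intervals lie clear of no difference were seen for *Il6st* (88.2 against 63.4 CPM, 1.39-fold higher, 1.17 to 1.65), *Il10ra* (23.2 against 16 CPM, 1.46-fold higher, 1.03 to 2.04), *Il21r* (245 against 207 CPM, 1.18-fold higher, 1.07 to 1.31) and *Il2rg* (195 against 230.4 CPM, 1.18-fold lower, 1.06 to 1.31). *Il10rb* (ratio 0.872, 0.679 to 1.11) and *Il27ra* (ratio 0.860, 0.678 to 1.08) had intervals that hold no difference. At equal depth *Il2rb* (1.81-fold), *Il6st* (1.70-fold) and *Il10ra* (1.75-fold) passed 1.5-fold and *Il4ra* (1.34-fold) did not, while *Il6ra* kept its call. With cells grouped by mRFP UMIs instead, *Il10ra* turned to a lower level (14.7 against 18.1 CPM), *Il21r* was level (215 against 217 CPM) and *Il27ra* was 1.18-fold higher. There were 95 splenic cells with an mRFP UMI, 56 of them with a *Foxp3* UMI, so most cells with a *Foxp3* UMI fell on the side without mRFP.

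The cells with a *Foxp3* UMI were gathered in splenic clusters 3 (130 cells) and 4 (93 cells). Within cluster 3 the ratio was 1.15 for *Il2rb* (0.946 to 1.40), 1.20 for *Il4ra* (0.846 to 1.73), 1.27 for *Il6ra* (0.632 to 2.66) and 1.23 for *Il6st* (0.886 to 1.72). Within cluster 4 it was 1.25 for *Il2rb* (1.0 to 1.56), 1.46 for *Il4ra* (0.962 to 2.25), 0.841 for *Il6ra* (0.501 to 1.41) and 1.64 for *Il6st* (1.11 to 2.43). The point ratios of *Il2rb* and *Il4ra* were thus smaller within clusters than over the whole library, while that of *Il6st* was larger in cluster 4. The intervals are wide, and those of *Il4ra* in both clusters and of *Il2rb* and *Il6ra* in cluster 4 also hold the whole-library ratio. A lower *Il6ra* of cells with a *Foxp3* UMI was not detectable within either cluster. *Foxp3* was itself a leading gene of cluster 3, so the clusters are not independent of it.

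In the small intestine only 28 cells had a *Foxp3* UMI, with 149331 UMIs in all, so that 3 UMIs stand for 20.1 CPM, and 43.6% of 6870 genes passed 1.5-fold (20.8% higher and 22.8% lower). Of the 8 receptors with enough UMIs 5 did, 3 higher and 2 lower. *Il21r* was at 201 CPM in these cells (136 to 287) and 500.1 CPM in the others (480.5 to 520.4), 2.49-fold lower (1.74 to 3.70), *Il10rb* at 100.4 CPM (56.2 to 166) and 39.3 CPM (34.0 to 45.3), and *Il6st* at 46.9 CPM (18.8 to 96.6, 7 UMIs) and 17.6 CPM (14.1 to 21.8). The ratios of *Il10ra* (5 UMIs in the *Foxp3* cells) and *Il27ra* (7 UMIs) passed 1.5-fold with intervals that hold no difference, and *Il6ra* had 0 UMIs in them. The ratio of *Il10rb* was 1.36 with thinned cells and 1.16 by mRFP UMIs, and that of *Il6st* 1.29 by mRFP UMIs, none of them counted, while *Il21r* was at least 1.63-fold lower under each alternative. Some alternatives rest on very few cells, as only 9 intestinal cells had an mRFP UMI (3 of them with a *Foxp3* UMI) and 6 had at least 2 *Foxp3* UMIs. Of the 28 cells 21 lay in cluster 5, the cluster low in *Il21r*. Within it *Il21r* was at 173 CPM in cells with a *Foxp3* UMI and 179 CPM in the others (ratio 0.965, 0.559 to 1.58), and *Il10rb* was at 127 and 37.5 CPM (3.39-fold, 1.61 to 6.94, from 14 and 22 UMIs). *Il6st* was at 18.2 and 20.4 CPM within this cluster (ratio 0.889, 0.0966 to 3.99, from 2 and 12 UMIs), so a higher level was not detectable there.

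Of the 47 pathway genes, 34 had enough UMIs in the spleen and 8 were higher and 6 lower in cells with a *Foxp3* UMI, beside 13.7% of all genes in either direction. *Il2ra* was at 278 and 115 CPM (2.42-fold, 2.18 to 2.69), *Socs2* at 151 and 44.1 CPM (3.42-fold, 2.92 to 4.0) and *Ebi3* at 12.5 and 5.13 CPM. *Il12rb2* (6.02 against 46.6 CPM), *Il21* (20.7 against 79.7 CPM) and *Ptpn6* (54.2 against 118 CPM) were lower, and all 85 UMIs of *Il4* were in cells without *Foxp3*. In the small intestine 32 could be compared, with 8 higher and 5 lower, beside 43.6% of all genes. They were led by *Il22* (328 against 22.1 CPM, from 49 and 108 UMIs), *Il12rb2* (26.8 against 176 CPM), *Il2ra* (121 against 20.7 CPM) and *Il7r* (228 against 57.3 CPM).

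Grouping by *Il10* UMIs asked whether the receptors follow the level of *Il10* RNA among cells that were all sorted for the IL-10 reporter. In the spleen *Il6ra* was lower and *Il2rb* higher in cells with more *Il10* UMIs. In the small intestine *Il2rb* and *Il21r* were higher and *Il4ra* lower. With cells of 3 or more *Il10* UMIs set against cells of none, 1 of 9 receptors passed 1.5-fold in the spleen beside 16.6% of 7461 genes, 11.2% higher and 5.46% lower (534 against 516 cells), and 2 of 8 in the small intestine beside 8.83% of 5709 genes, 5.55% higher and 3.28% lower (445 against 351 cells). The median log2 ratio of all genes was 0.11 in splenic cells and 0.05 in intestinal cells, against which the ratios can be read. Cells with more *Il10* UMIs were deeper, with medians of 4460 UMIs at 0 and 7936 at 6 or more in the spleen and 3313 and 4532 in the small intestine.

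Splenic *Il6ra* was at 71.5 CPM in cells with 0 *Il10* UMIs (61.6 to 82.5), 37.0 CPM at 1 to 2 (29.7 to 45.5), 33.5 CPM at 3 to 5 (25.7 to 42.9) and 28.8 CPM at 6 or more (22.3 to 36.7). The step lies between 0 and 1 to 2, and the 3 classes above it are not apart. At 3 or more against none the level was 2.31-fold lower (1.84 to 2.92), and equal-depth shares were 13.8% at 0 and 6.11% at 6 or more. Where the *Il10* classes were made from cells thinned to equal depth, the ratio was 1.32-fold and not counted. The median cell of cluster 2, the cluster highest in *Il6ra*, had 0 *Il10* UMIs, and its *Il10* was at 109 CPM. Within splenic cluster 1 the ratio at 3 or more against none was 0.640 (0.373 to 1.08), and within clusters 3, 4 and 5 it was 1.39, 1.09 and 1.54 with intervals that hold no difference.

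*Il2rb* was at 148, 171, 193 and 201 CPM in the 4 splenic classes and at 146, 153, 159 and 214 CPM in the intestinal classes. At 3 or more against none it was 1.33-fold higher in splenic cells (1.18 to 1.5) and 1.23-fold in intestinal cells (1.03 to 1.49). Within the splenic clusters compared its ratio was between 0.876 and 1.21 in clusters 1, 3, 4 and 5, with intervals that hold no difference, and 0.687 in cluster 6 (0.499 to 0.952). Within the intestinal clusters it was 2.02 in cluster 4 (1.04 to 4.29) and between 0.802 and 1.37 in the other 5, with intervals that hold no difference. *Il21r* was level over the splenic library as a whole, between 202 and 228 CPM. Within splenic cluster 3 its ratio at 3 or more against none was 1.41 (1.01 to 2.01). It was between 0.762 and 1.06 in clusters 1, 4, 5 and 6, with intervals that hold no difference. In the intestinal classes *Il21r* was at 460.3, 467, 502 and 579 CPM, 1.15-fold higher at 3 or more (1.04 to 1.28). Within the intestinal clusters its ratio was 1.30, 1.31 and 1.47 in clusters 1, 2 and 3 with intervals above 1, 1.23 in cluster 4 (0.911 to 1.68), 0.893 in cluster 5 (0.545 to 1.49) and 0.712 in cluster 6 (0.534 to 0.941), the cluster led by the CD8 genes. *Il2rg* was 1.20-fold lower at 3 or more in the spleen (196 against 235 CPM, 1.08 to 1.33) and had a ratio of 1.14 in the small intestine (0.975 to 1.33).

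Intestinal *Il4ra* was at 47.5 CPM in cells with 3 or more *Il10* UMIs (38.4 to 58.0) and 72.4 CPM in cells with none (58.0 to 89.3), 1.53-fold lower (1.13 to 2.06), just past the threshold. Over the 4 classes it did not fall steadily, at 72.4, 68.9, 42.1 and 56.2 CPM. Within the intestinal clusters its ratio was 0.560 in cluster 1 (0.334 to 0.959). In the others it was between 0.335 and 0.993, with intervals that hold no difference. *Il10ra* was at 19.0 CPM (13.4 to 26.1) and 11.7 CPM (6.37 to 19.6), a ratio of 1.63 that holds no difference (0.863 to 3.26). The intestinal ratios of *Il10rb* (0.880), *Il27ra* (0.885) and *Il6st* (0.835) and the splenic ratios of *Il4ra* (0.969), *Il6st* (1.18), *Il10ra* (0.759), *Il10rb* (0.796), *Il21r* (1.10) and *Il27ra* (0.961) also had intervals that hold no difference. Within splenic clusters the *Il6st* ratio was 1.97 in cluster 3 (1.08 to 3.93, from 106 and 12 UMIs) and 1.97 in cluster 4 (0.958 to 4.71). In clusters 1, 5 and 6 it was between 1.10 and 1.26, with intervals that hold no difference. Without the cells that had a *Foxp3* UMI, splenic *Il10ra* was at 12.1 against 18.5 CPM and counted as lower, and intestinal *Il4ra*, with a ratio of 0.671, was no longer counted.

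Of the pathway list 32 genes had enough UMIs in the spleen, and 8 were higher and 4 lower at 3 or more *Il10* UMIs, beside 16.6% of all genes. In the small intestine 29 had enough, and 5 were higher and 1 lower, beside 8.83% of all genes. *Il10* is included among the higher ones by construction. *Il2ra* was 2.40-fold higher in splenic cells (2.07 to 2.79) and 1.97-fold in intestinal cells (1.14 to 3.54), and *Il12rb1* 2.51-fold (1.68 to 3.86) and 1.68-fold (1.13 to 2.55). *Socs2* (98.5 against 29.2 CPM) and *Il4* (11.1 against 2.31 CPM) were higher in the spleen, *Socs3*, a feedback inhibitor of gp130, was 1.71-fold lower there (1.55 to 1.89), and *Il12rb2* (1.72-fold, 1.43 to 2.09) and *Cish* (1.68-fold, 1.20 to 2.38) were higher in the small intestine.

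**Figure D3:**
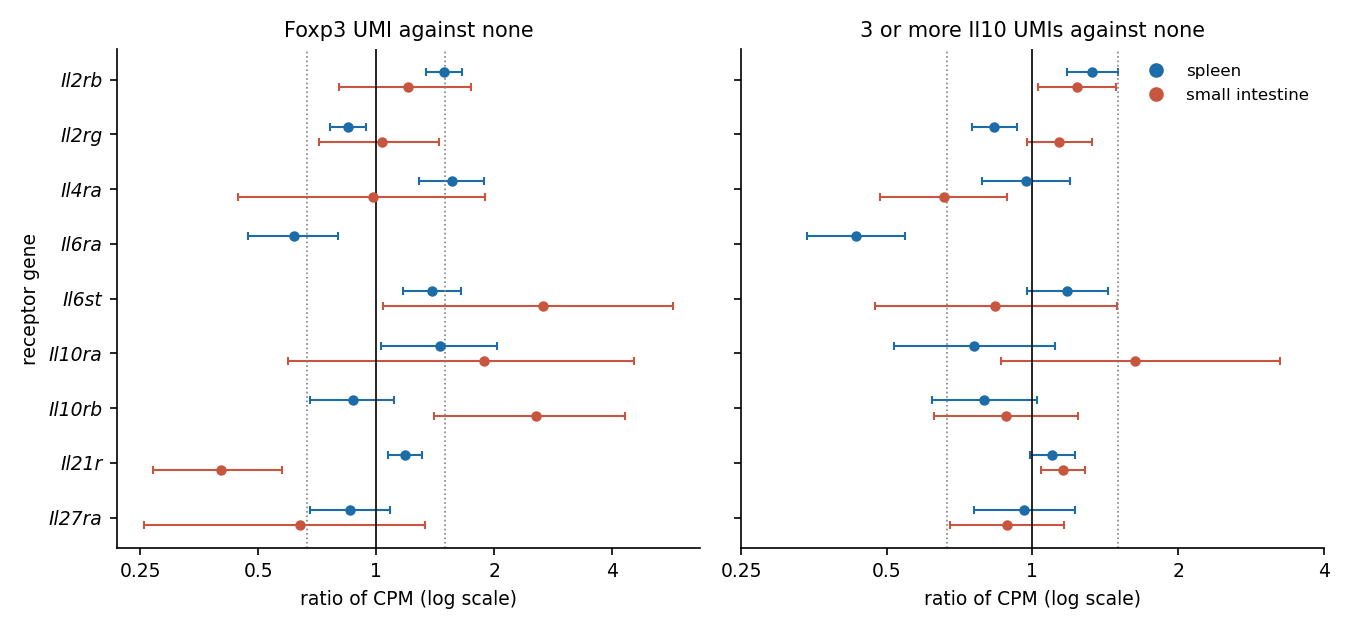
Ratio of CPM (log scale) of each receptor gene between cells with and without a *Foxp3* UMI (left) and between cells with 3 or more and with no *Il10* UMIs (right), for each library, with exact 95% intervals. The solid line marks no difference and the dotted lines 1.5-fold, and intestinal *Il6ra* is not drawn for want of UMIs. Splenic *Il6ra* lies below 1 in both panels, and *Il21r* lies above 1 in the spleen and below 1 in the small intestine on the left.

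**Figure D4:**
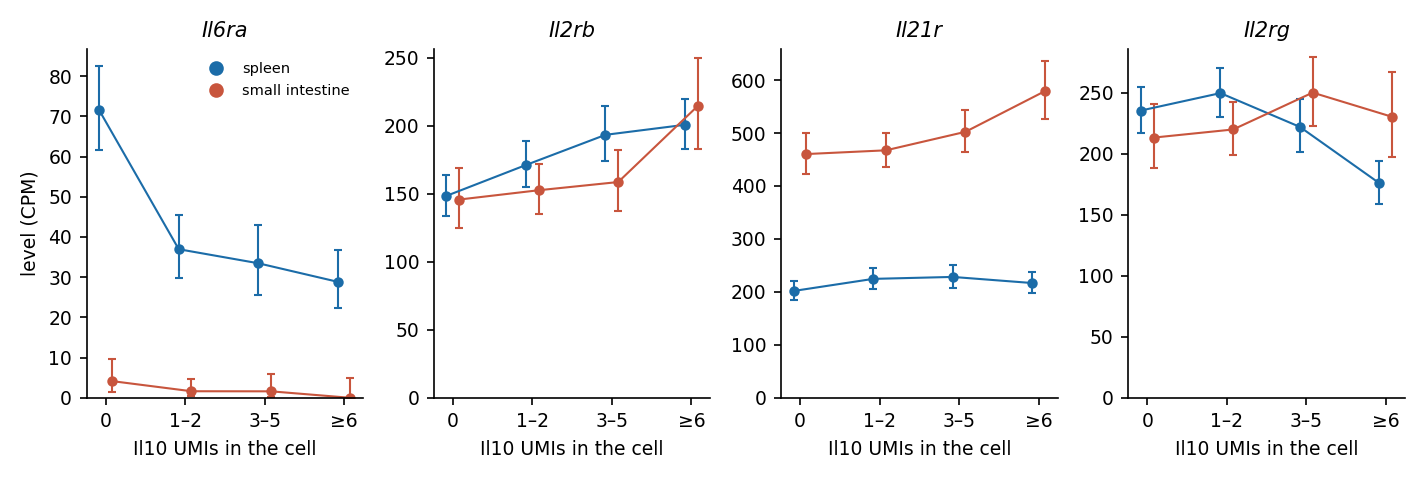
Level (CPM, linear scale from 0) of *Il6ra*, *Il2rb*, *Il21r* and *Il2rg* in cells with 0, 1 to 2, 3 to 5 and 6 or more *Il10* UMIs in each library, with exact Poisson 95% intervals. Splenic *Il6ra* drops from 71.5 CPM at 0 to 28.8 CPM at 6 or more, and intestinal *Il21r* goes from 460.3 to 579 CPM.

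UMIs of 2 chains of a receptor were also counted together in the same cell, which does not measure whether the cell can respond. At equal depth *Il21r* and *Il2rg* were seen together in 14.0% of splenic cells (12.3 to 16) and 21.8% of intestinal cells (19.5 to 24.3), where the product of the single shares is 13.9% and 21.4%. *Il2rb* and *Il2rg* were together in 11.8% (10.2 to 13.6) and 10.2% (8.49 to 12.1), and *Il4ra* and *Il2rg* in 4.10% (3.14 to 5.26) and 4.61% (3.47 to 5.99). *Il6ra* and *Il6st* were together in 1.25% of splenic cells (0.744 to 1.97) and in 1 intestinal cell (0.0870%, 0.00220 to 0.484), and *Il27ra* and *Il6st* in 1.11% (0.637 to 1.80) and 0.609% (0.245 to 1.25). *Il10ra* and *Il10rb* were together in 0.487% (0.196 to 1.0) and 0.261% (0.0539 to 0.761). For all 6 pairs in both tissues the interval holds the product of the shares, and neither pairing nor avoidance of chains was detectable at this depth. The median cell had UMIs of 2 of the 9 receptors in either tissue, and 15.7% of splenic and 14.3% of intestinal cells had none.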

How the data were processed

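Cells of 1 library per tissue had been sequenced on the 10x Genomics platform. The deposited values are whole-number UMI counts per gene and cell, made by the authors with Cell Ranger; the submitters' processing notes also name Trimmomatic and the builds mm10 and mm8, without versions. The other experiments of the study were not used here.

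Cells beyond 3 median absolute deviations in quality measures (90 splenic, 135 intestinal) and G2/M cells called by cyclone (180 and 62) were left out (R 4.3.3, scran 1.30.0, scuttle 1.12.0). Scrublet (scanpy 1.11.5) marked 3 splenic and 12 intestinal barcodes as doublets, which were kept in the reported values and left out in an alternative. A caller that marks so few may have missed doublets. Clusters came from a shared nearest neighbour graph (10 neighbours, 20 components, bluster 1.12.0) built without the receptors and pathway genes. Levels have exact Poisson intervals, ratios and shares exact binomial (Clopper-Pearson) intervals at 95%. Thinning used seed 1. Likeness was Pearson's r of log2(CPM + 10) between each receptor and genes with at least 500 UMIs. This minimum was not set for the receptors, and *Il6ra* (413 UMIs) and *Il10ra* (255 UMIs) lie below it. The ratio step was tested on simulated data.

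All 9 receptors were named, with the 3 most alike genes each, and up to 8 pathway genes a comparison past 1.5-fold, with an interval clear of no difference, by size of ratio. The receptors and lists were chosen with earlier results of these data known. Grouping by mRFP and the marker genes given by cluster were chosen after seeing the data. Some marker genes, and an alternative that needs them, are not reported here. RefSeq promoters matched 5 of the 9 genes.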

Additional observations from a re-analysis of the deposited data

Results flagged for a closer look

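The difference of *Il21r* between cells with and without a *Foxp3* UMI had opposite directions in the 2 libraries, with a log2 ratio of 0.24 for splenic and -1.32 for intestinal cells. With cells grouped by mRFP UMIs the splenic value was -0.01 (95 cells with an mRFP UMI) and the intestinal one -1.37 (only 9 such cells). The splenic difference was thus not seen by mRFP, a grouping that put most cells with a *Foxp3* UMI on the side without mRFP. The difference between the libraries was not tested, since each tissue is 1 library. Of the 28 intestinal cells with a *Foxp3* UMI, 21 lay in cluster 5, and within that cluster *Il21r* was at 173 CPM with and 179 CPM without a *Foxp3* UMI.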

How the results depend on the processing

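Each of 44 receptor ratios was recomputed under the alternatives, giving 412 values. Of these 379 stayed within the counting interval of the reported ratio, 31 moved further and 2, of receptors past 1.5-fold, changed sign: intestinal *Il10ra* by *Foxp3* with cells thinned to equal depth (log2 -0.30) and intestinal *Il27ra* by *Foxp3* with cells grouped by mRFP (log2 0.99, from 9 cells with an mRFP UMI). Counting receptors not past 1.5-fold, 33 values had the other sign, 23 of them within the interval of the reported ratio. A further 8 lay outside it, not all named here. Among these, grouping by mRFP turned splenic *Il10ra* (log2 -0.31), *Il21r* (-0.01) and *Il27ra* (0.24), and leaving out *Foxp3* cells turned *Il2rb* between tissues (-0.04). The number of receptors past 1.5-fold between tissues was 3 or 4 throughout. For *Foxp3* in the spleen it was 2, and became 4 with thinned cells, 1 by mRFP and 0 at 2-fold. For *Foxp3* in the small intestine it was 5, and became 2 with thinned cells, 8 with at least 2 *Foxp3* UMIs (6 cells), and 3 by mRFP (9 cells), with at least 200 UMIs and at 2-fold. For *Il10* in the spleen it was 1, and became 0 with classes from thinned cells and 2 without *Foxp3* cells. For *Il10* in the small intestine it was 2, and became 1 with G2/M cells kept, without CD8 cells, with thinned cells and with 1 or more *Il10* UMIs, and 0 with classes from thinned cells, without *Foxp3* cells, with at least 200 UMIs and at 2-fold. The share of all genes past 2-fold was 24.0% between tissues, 3.99% and 21.3% for *Foxp3* and 4.30% and 1.23% for *Il10*, in spleen and small intestine. The cause of these changes was not tested. No paired analysis was possible because each tissue is 1 library, and no library could be left out. Intestinal *Il6ra* rests on 10 UMIs.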
